A study of Mus musculus with 8 samples.

Results

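The integrin and laminin genes were examined in Isl1 hypomorphic mouse embryos at E10.5, in tissue of the right ventricle and the outflow tract (OFT/RV). They were taken from the table by name, as every symbol of an integrin alpha subunit (Itga), an integrin beta subunit (Itgb) or a laminin alpha, beta or gamma chain (Lama, Lamb, Lamc), with Itga1 and Itga2 left out. Described here are 34 genes of the 20701 symbols in the table, 24 integrins and 10 laminins. They were listed as 51 transcripts, and of several transcripts of a symbol the one with the most counts on average was used.

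Laminins are the large cross-shaped proteins of basement membranes, each built from 1 alpha, 1 beta and 1 gamma chain. Integrins are the transmembrane receptors, made of 1 alpha and 1 beta subunit, through which cells hold on to laminin, fibronectin and collagen and pass the contact on to the actin cytoskeleton. In the embryonic heart a basement membrane lies under the endocardium and around the myocardium, and integrin contact with it is needed for the walls and valves to form.

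RNA of single embryos was sequenced from 4 control embryos (CTRL, genotype wild type) and 4 Isl1 hypomorphic embryos (Isl1_hypo), all of strain C57BL/6 and stage E10.5. The hypomorphic line carries floxed Isl1 alleles that keep a neo cassette (f;neo/f;neo), which lowers Isl1 wherever the gene is expressed and not in a chosen cell type. Isl1 encodes the LIM-homeodomain factor of second heart field progenitors, from which both structures arise. The question of the comparison was which genes differ when Isl1 is reduced.

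With 1 transcript per gene the libraries held 29748458 to 46678973 counts in CTRL and 18422245 to 33050298 in Isl1_hypo. The mean Isl1 level fell to 20.5% of CTRL, from 29.6 to 61.5 CPM (counts scaled to the TMM-adjusted size of the library) down to 6.86 to 12.7 CPM. The log2 fold change was −2.29 and the adjusted p 0.00770 (edgeR). The cardiomyocyte markers were high in all 8 libraries, at 38838 to 51045 summed CPM over 8 genes. The libraries were not alike in other cells. The summed level of 8 erythroid markers was 1924 to 11236 CPM in CTRL and 11255 to 23349 CPM in Isl1_hypo, and that of 5 epicardium markers was 39.0 to 253 against 325 to 608 CPM. Isl1_hypo replicate 1 alone held the epithelial genes Cldn6 (38.5 CPM) and Cdh1 (15.3 CPM), which stood at 0.311 CPM or less in the other 7 libraries. Isl1_hypo replicate 3 was the lowest of the 8 libraries for 28.4% of all genes tested and the highest for 26.2%.

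The levels of the genes were compared per length, with the RPKM values of the authors (reads scaled to transcript length and library total). Itgb1, the beta subunit shared by most integrins that bind the matrix, was the highest of the 34 genes at 96.6 ± 22.6 RPKM in CTRL and 83.4 ± 2.26 in Isl1_hypo (SD, n = 4). It was followed by Lamb1 (29.2 ± 2.38 and 24.1 ± 3.38), the fibronectin receptor subunit gene Itga5 (26.2 ± 1.82 and 22.7 ± 3.32), Lama4 (21.0 ± 4.67 and 15.4 ± 2.81), Lamc1 (16.5 ± 2.79 and 12.5 ± 0.896) and the laminin receptor subunit gene Itga6 (13.9 ± 2.88 and 10.9 ± 0.995). In CTRL the ranges of each of these 5 genes overlapped with the next, and in Isl1_hypo those of Lamb1 and Itga5, Lama4 and Lamc1, and Lamc1 and Itga6, so the order between such neighbours is not beyond the spread. The integrins of leukocytes, the collagen-binding subunits Itga10 and Itga11, Lama3, Lamc3 and the epithelial beta subunits Itgb4 and Itgb6 all had group means under 0.5 RPKM.

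**Figure D1:**
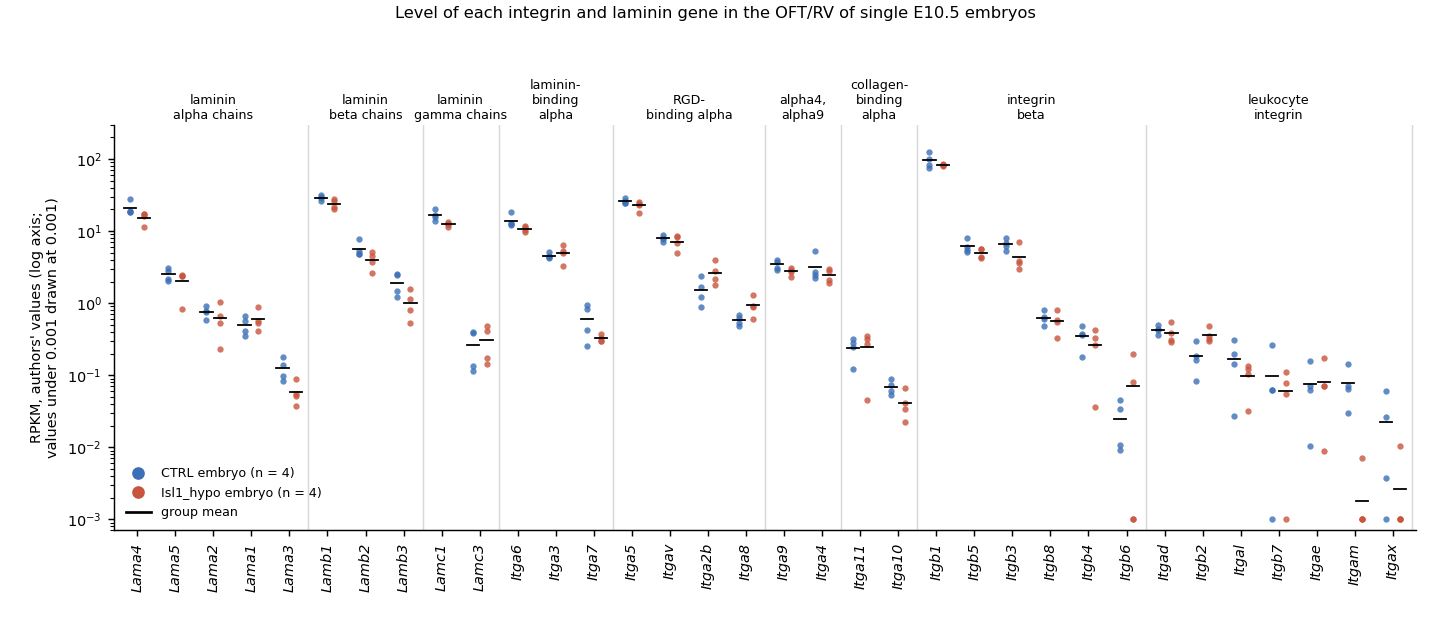
RPKM of the 34 genes in each embryo on a log axis, grouped by role, with CTRL in blue, Isl1_hypo in red and the group mean as a black line. Itgb1 stands highest at a mean of 96.6 RPKM in CTRL, and the leukocyte integrins on the right stand under 1 RPKM in every embryo.

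Among the laminin alpha chains, the laminin beta chains and the integrin beta subunits a single gene supplied most of the transcripts. Lama4 made up 83.9 ± 3.95% of the RPKM sum of the 5 alpha chains in CTRL and 82.9 ± 3.39% in Isl1_hypo (SD, n = 4). Lamb1 made up 79.6 ± 3.2% and 82.9 ± 3.0% of the beta chains. The second chains were Lama5 (10.4 ± 3.0% and 10.4 ± 2.56%), the main alpha chain of many mature basement membranes, and Lamb2 (15.2 ± 2.26% and 13.7 ± 1.90%). Itgb1 held 87.0 ± 2.19% and 88.6 ± 1.80% of the integrin beta subunits. For 4 of these 5 genes the group means differed by less than the larger SD, and for Lamb1 by slightly more than it, with overlapping groups. No test was run on the shares. The transcripts of alpha4 and beta1, chains of the laminin found in vessel and endocardial basement membranes, were thus the most abundant of their classes in every embryo.

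**Figure D2:**
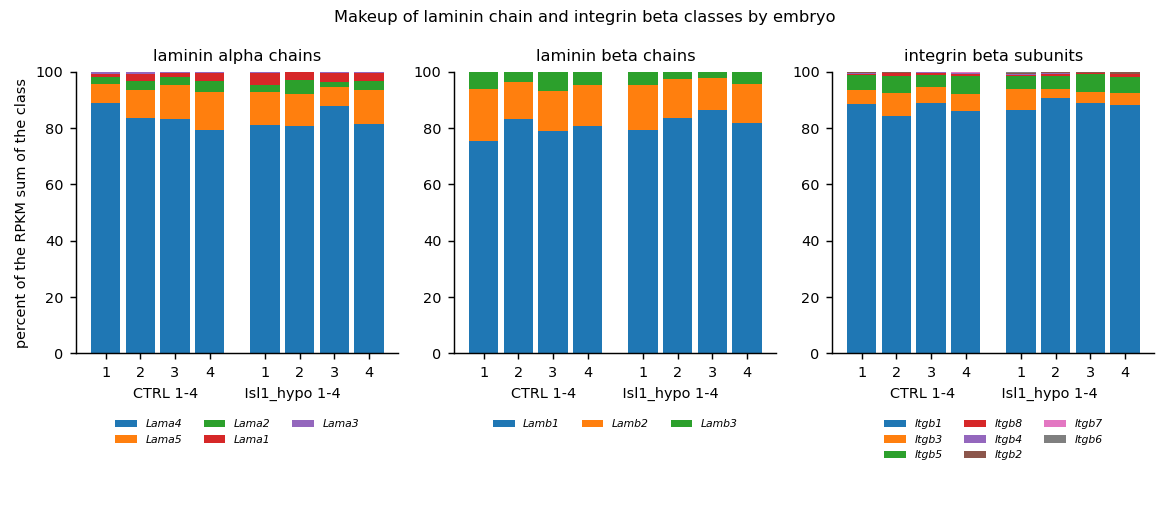
Stacked bars give each gene as a percent of the RPKM sum of its class in each embryo, for laminin alpha and beta chains and integrin beta subunits. Lama4, Lamb1 and Itgb1 form the largest part of every bar in both groups.

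The groups were then compared gene by gene with the quasi-likelihood test of edgeR, fitted to all 13769 genes that passed the filter on low counts. Of the 34 genes 30 passed this filter, all 10 laminins and 20 integrins, and Itgam, Itgax, Itgb6 and Itgb7 did not. None of the 30 had an adjusted p under 0.05 with edgeR, DESeq2 or limma-voom, and the lowest adjusted p with edgeR was 0.284, for Lamc1. Over all genes 0.269% passed at this threshold. No gene of the group is therefore reported as changed after correction.

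At an unadjusted p under 0.05 there were 9 of the 30 genes. Lower in Isl1_hypo were 7 of them (23.3%, against 6.17% of all genes tested): Lama3, Lama4, Lamb1, Lamb3, Lamc1, Itga6 and Itgb3. Higher were 2 (6.67%, against 5.69%): Itga8 and Itga2b. DESeq2 gave 9 lower and 3 higher at this threshold (6.98% and 6.22% of all genes) and limma-voom 7 lower and 3 higher (6.94% and 6.71% of all genes). Without CTRL replicate 1 edgeR gave 2 of 32 lower and 2 higher (6.25% each, against 5.12% and 5.03% of all genes), so that the share was then near that of all genes. Without Isl1_hypo replicate 3 it gave 5 of 32 lower (15.6%, against 5.92%) and 2 higher (6.25%, against 4.97%). The groups did not overlap for 3 genes that were lower (10%, against 4.44% of all genes), which were Lamc1, Lama4 and Itga6, and for 1 that was higher (3.33%, against 4.06%), which was Itgb2. The median log2 fold change was −0.27 over the 30 genes and 0.01 over all genes, and 22 of the 30 genes had a lower mean in Isl1_hypo (73.3%, against 49.1% of all genes). The 10 laminins had a median of −0.33 with 8 lower, and the 20 integrins a median of −0.18 with 14 lower. Transcripts of these families are long, and after a length trend was removed from each library the median of the 30 genes was −0.17, with 5 genes in place of 9 at an unadjusted p under 0.05. Of these 3 were lower (10%, against 5.59% of all genes) and 2 higher (6.67%, against 6.63%), and 2 genes in place of 4 were without overlap (6.67%, against 8.82%). Markers of mesenchyme had a lower median, as both families did. Of 8 such genes 7 had a log2 fold change under 0, with a median of −0.34 and Twist1 and Sox9 at an unadjusted p under 0.05 (edgeR), and their summed CPM was 2681, 1795, 1946 and 2120.4 in CTRL and 3105, 1517, 1059 and 1248 in Isl1_hypo. All 5 smooth muscle markers had a log2 fold change under 0, with a median of −0.29 and Myh11 at an unadjusted p under 0.05 (edgeR), but their summed CPM was 5201, 7504, 7706 and 6168 in CTRL and 6796, 6073, 5227 and 7577 in Isl1_hypo, with overlapping groups. The part of either cell type in the medians of the laminins and integrins was not tested.

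**Figure D3:**
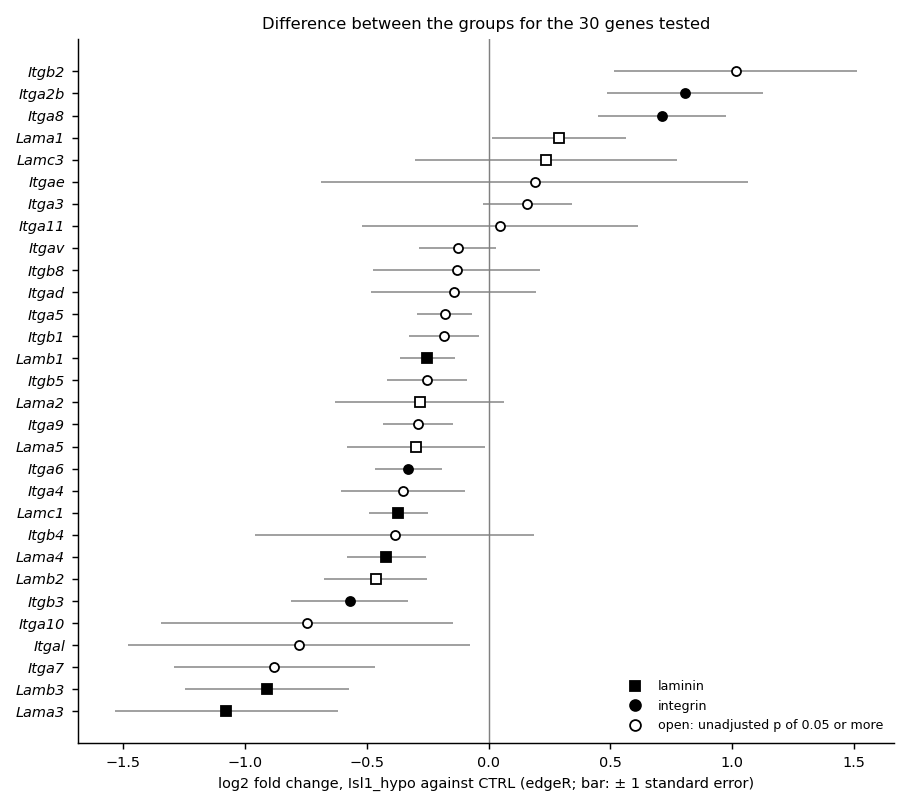
Log2 fold change of Isl1_hypo against CTRL for the 30 genes tested, with bars of ± 1 standard error, squares for laminins, circles for integrins and filled symbols for an unadjusted p under 0.05. Of the 30 symbols 22 lie left of 0, from −1.08 for Lama3 upward, and the filled symbols right of 0 are Itga8 and Itga2b.

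The most abundant transcripts of the laminin alpha, beta and gamma classes were those of Lama4, Lamb1 and Lamc1. Their Isl1_hypo means lay 16.02% to 25.2% under the CTRL means, and none passed adjustment. Lama4 (mm9, chr10:38685321-38829994), whose product is the alpha chain of endothelial laminin, was measured at 269, 184, 190.1 and 178 CPM in the controls, in the order of replicates 1 to 4 used throughout, and at 168, 169.8, 115 and 161 CPM in Isl1_hypo. Every Isl1_hypo embryo was under every CTRL embryo, although CTRL replicate 1 stood far above the other 3 controls and Isl1_hypo replicate 3 far under its group. The log2 fold change was −0.42 (SE 0.162, unadjusted p = 0.0243, adjusted p = 0.331). It was −0.27 (unadjusted p = 0.0854, edgeR) without CTRL replicate 1 and −0.30 (unadjusted p = 0.0483, edgeR) without Isl1_hypo replicate 3. Endothelial and endocardial markers differed in both directions. The summed CPM of 8 such genes was 908, 763, 807 and 856 in CTRL and 794, 804, 631 and 637 in Isl1_hypo, and their median log2 fold change was −0.19. Pecam1 (−0.58) and Cdh5 (−0.54) had an unadjusted p under 0.05 among the 6 of 8 with a lower log2 fold change, and Nfatc1 (0.36) and Emcn (0.23) were on the higher side with an unadjusted p of 0.0763 and 0.0748 (edgeR). Their part in the level of Lama4 was not tested, and in bulk RNA fewer cells of a type and less RNA per cell cannot be told apart.

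Lamc1 (chr1:155066052-155179916), the gamma chain of most laminins, stood at 247, 206, 172 and 193 CPM in CTRL and at 141, 169.7, 162 and 159.5 CPM in Isl1_hypo. The groups did not overlap, but the lowest control and the highest hypomorphic embryo were close, at 172 and 169.7 CPM. Its mean was 205 ± 31.5 CPM in CTRL and 158 ± 12.2 CPM in Isl1_hypo (SD, n = 4), a difference of 22.6%, with a log2 fold change of −0.37 (SE 0.121, unadjusted p = 0.0106, adjusted p = 0.284). An unadjusted p under 0.05 was found in each of the 8 fits that left out 1 library, with log2 fold changes of −0.45 to −0.27. Lamb1 (chr12:31950099-32014509), a laminin beta chain gene, stood at 294, 279, 276 and 246 CPM in CTRL and at 247, 262, 201 and 208 CPM in Isl1_hypo. These groups overlapped, with Isl1_hypo replicates 1 and 2 above CTRL replicate 4, and the log2 fold change was −0.25 (SE 0.113, unadjusted p = 0.0463, adjusted p = 0.411). Without CTRL replicate 1, 2 or 3 or Isl1_hypo replicate 3 or 4 the unadjusted p of Lamb1 was over 0.05, up to 0.123. It was also over 0.05 with the length trend removed (0.0975, edgeR) and with limma-voom (0.0685).

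The largest log2 fold changes among the laminins described were those of Lama3 and Lamb3, which encode chains known from epithelial basement membranes. Lamb3 (chr1:195128151-195170072) stood at 16.1, 8.07, 16.9 and 9.62 CPM in CTRL and at 10.4, 5.32, 3.70 and 7.71 CPM in Isl1_hypo, and the ranges overlapped. Its log2 fold change was −0.91 (SE 0.337, unadjusted p = 0.0202, adjusted p = 0.316), and the unadjusted p was over 0.05 without CTRL replicate 1 or 3 or Isl1_hypo replicate 2. The log2 fold change was −0.70 (unadjusted p = 0.0432, edgeR) without Isl1_hypo replicate 3, the lowest library. Lama3 (chr18:12492533-12741522) was rare, at 2.98, 2.34, 1.64 and 1.39 CPM in CTRL and 0.923, 0.637, 0.885 and 1.49 CPM in Isl1_hypo. Isl1_hypo replicate 4 lay above CTRL replicate 4, and the other 3 hypomorphic embryos lay under all controls. The log2 fold change of Lama3 was −1.08 (SE 0.457, unadjusted p = 0.0373, adjusted p = 0.382). Lama3 lost an unadjusted p under 0.05 in 5 of the 8 fits without 1 library and with the length trend removed (0.0633, edgeR). The summed CPM of 9 epithelial markers was 69.9, 116, 116 and 108 in CTRL and 328, 125, 193 and 179 in Isl1_hypo, highest in Isl1_hypo replicate 1, where Lamb3 was 10.4 CPM. Krt8 and Krt18, keratins that other embryonic cells express too, made up 71.0% of this sum in Isl1_hypo replicate 1 and 96.6% to 99.1% in the other libraries. Their part in the levels of Lama3 and Lamb3 was not tested.

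Of the other laminins, Lamb2, the beta chain of muscle and vessel basement membranes, stood at 69.9, 43.4, 48.6 and 44.1 CPM in CTRL and at 47.6, 42.4, 25.2 and 34.4 CPM in Isl1_hypo, with a log2 fold change of −0.46 (SE 0.212, unadjusted p = 0.0508, adjusted p = 0.424). CTRL replicate 1 was the highest and Isl1_hypo replicate 3 the lowest library, and the other 6 lay between 34.4 and 48.6 CPM. Without the first the log2 fold change of Lamb2 was −0.29 (unadjusted p = 0.184, edgeR), and without the second −0.31 (unadjusted p = 0.113, edgeR). With all libraries its unadjusted p was 0.0339 with DESeq2 and 0.133 with limma-voom. Lama5, Lama2, Lama1 and Lamc3 had log2 fold changes between −0.30 and 0.29 with unadjusted p of 0.314 to 0.667. In Isl1_hypo replicate 3 Lama5 was 16.2 CPM, against 44.3 to 46.2 CPM in the other Isl1_hypo embryos, and Lama2, the alpha chain of skeletal and cardiac muscle, was 3.86 CPM against 8.26 to 16.5 CPM. Without this library their log2 fold changes were −0.05 and −0.01. Over the fits without 1 library the log2 fold change of Lama1 ranged from 0.05 (without Isl1_hypo replicate 1) to 0.46 (without CTRL replicate 4), and that of Lamc3 from −0.07 to 0.53, without the same libraries. Isl1_hypo replicate 3 was the lowest of the 8 for 6 of the 10 laminins and for 12 of the 30 genes tested (40%, against 28.4% of all genes). CTRL replicate 1 was the highest for 14 of the 30, where it was the highest for 17.2% of all genes. The cause was not tested.

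Among integrin subunits that bind laminin, Itga6 (chr2:71583673-71696473) was the most abundant. Its alpha6 subunit pairs with beta1 in most cells. Itga6 stood at 174, 128, 123 and 117 CPM in CTRL and at 94.2, 117, 117 and 104 CPM in Isl1_hypo. CTRL replicate 1 stood apart above the rest, and the lowest control and the highest hypomorphic embryo differed by less than 1 CPM. The log2 fold change was −0.33 (SE 0.138, unadjusted p = 0.0349, adjusted p = 0.375). It was −0.19 (unadjusted p = 0.110) without CTRL replicate 1, and the p was also over 0.05 without Isl1_hypo replicate 1 or 4 and with the length trend removed (0.0898). Itga3, another laminin receptor subunit, had overlapping groups and a log2 fold change of 0.16 (SE 0.182), which was 0.31 (unadjusted p = 0.0378, edgeR) without Isl1_hypo replicate 3 and 0.002 (unadjusted p = 0.989, edgeR) without Isl1_hypo replicate 2. Itga7, known from muscle, had one of −0.88 (SE 0.412) at 1.67 to 6.01 CPM over all libraries. Its unadjusted p was 0.0552 with edgeR, 0.0427 with DESeq2 and 0.269 with limma-voom.

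The subunits that bind the Arg-Gly-Asp motif of fibronectin and related ligands had log2 fold changes of both signs. Itga5, the most abundant of them, stood at 203, 179, 193 and 181 CPM in CTRL and at 168, 187, 135 and 177 CPM in Isl1_hypo, a log2 fold change of −0.18 (SE 0.114, unadjusted p = 0.141, adjusted p = 0.555). Without Isl1_hypo replicate 3, the lowest library, it was −0.09. Itgav had a log2 fold change of −0.13 (SE 0.158) with overlapping groups, which was −0.22 without the same library and 0.01 without Isl1_hypo replicate 4. Itga8 (chr2:12028259-12223547), whose product pairs with beta1 as a receptor of nephronectin and fibronectin, stood at 4.99, 4.55, 6.61 and 5.90 CPM in CTRL and at 5.76, 8.51, 13.1 and 8.75 CPM in Isl1_hypo. The hypomorphic embryos other than replicate 1 were above every control. The log2 fold change was 0.71 (SE 0.261, unadjusted p = 0.0191, adjusted p = 0.312), and it was 0.48 (unadjusted p = 0.0675) without Isl1_hypo replicate 3, which was the highest library, and the p was also over 0.05 without CTRL replicate 2. The summed CPM of the epicardium markers was 39.0, 167, 153 and 253 in CTRL and 334, 349, 608 and 325 in Isl1_hypo, likewise highest in Isl1_hypo replicate 3. Of these 5 markers 4 were higher at an unadjusted p under 0.05 (edgeR), against 5.69% of all genes. Their part in the level of Itga8 was not tested. Of the exon bases of Itga8 5.07% are shared with E030013I19Rik.

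Itga2b (chr11:102314611-102331436) encodes the alpha subunit of the platelet fibrinogen receptor and marks megakaryocytes and early blood progenitors. It stood at 6.59, 13.4, 4.92 and 9.40 CPM in CTRL and at 21.8, 12.3, 16.1 and 9.998 CPM in Isl1_hypo, with overlapping groups. Its log2 fold change was 0.81 (SE 0.322, unadjusted p = 0.0285, adjusted p = 0.348), and it lost an unadjusted p under 0.05 without CTRL replicate 1 or 3 or Isl1_hypo replicate 1. The summed CPM of 8 megakaryocyte and platelet markers was 45.4, 70.1, 49.2 and 88.9 in CTRL and 210.1, 73.9, 121 and 64.2 in Isl1_hypo. The same 2 libraries, Isl1_hypo replicates 1 and 3, were the highest for Itga2b and for these markers. All 8 markers had a higher mean in Isl1_hypo, with 3 at an unadjusted p under 0.05 (edgeR), against 5.69% of all genes on the higher side. Their part in the level of Itga2b was not tested. Itgb3, which encodes the partner subunit but also pairs with alpha v in other cells, did not follow Itga2b. It stood at 62.4, 76.3, 60.1 and 50.5 CPM in CTRL and at 67.4, 28.1, 35.8 and 36.9 CPM in Isl1_hypo. Isl1_hypo replicate 1 lay within the control range, and the other 3 hypomorphic embryos lay under every control. Its log2 fold change was −0.57 (SE 0.240, unadjusted p = 0.0364, adjusted p = 0.381) and −0.89 (unadjusted p = 0.000307) without Isl1_hypo replicate 1. However, Itgb3 lost an unadjusted p under 0.05 in 6 of the 8 fits without 1 library and with the length trend removed (0.0734, edgeR).

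**Figure D4:**
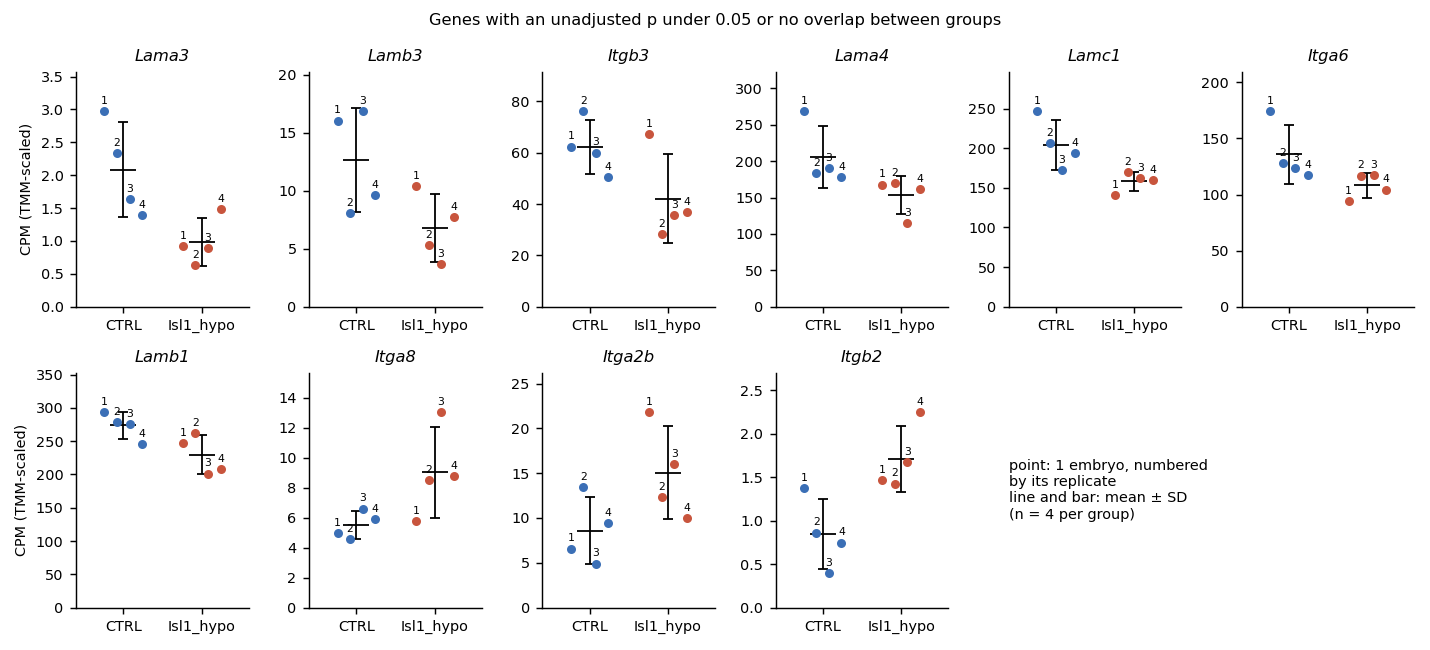
CPM of the 10 genes with an unadjusted p under 0.05 or without overlap between groups, in each embryo (points numbered by replicate, CTRL in blue, Isl1_hypo in red), with mean ± SD as line and bar and axes that start at 0. The groups lie apart for Lama4, Lamc1, Itga6 and Itgb2 and overlap for the other 6 genes.

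Upstream sequence was found in the RefSeq table for 4 of these 10 genes, Itga2b, Itga8, Lamb1 and Lamb3. The 250 bases before the transcription start from RefSeq (GRCm38.p6) are shown for Lamb1 (chr12:31265043-31265292, plus strand) and Itga8 (chr2:12301945-12302194, minus strand), whose log2 fold changes, of opposite sign, did not pass adjustment and which each held the homeodomain core TAAT or its complement ATTA, given in capitals:
Lamb1: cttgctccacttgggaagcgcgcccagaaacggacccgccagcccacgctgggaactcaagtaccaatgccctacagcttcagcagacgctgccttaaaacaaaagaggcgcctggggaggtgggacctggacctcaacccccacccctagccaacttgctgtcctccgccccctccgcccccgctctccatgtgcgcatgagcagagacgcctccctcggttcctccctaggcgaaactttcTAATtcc
Itga8: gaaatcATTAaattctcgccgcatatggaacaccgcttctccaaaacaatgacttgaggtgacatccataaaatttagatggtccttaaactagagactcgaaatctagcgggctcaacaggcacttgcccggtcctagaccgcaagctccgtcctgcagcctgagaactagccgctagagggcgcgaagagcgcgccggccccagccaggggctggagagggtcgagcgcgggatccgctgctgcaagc

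In Lamb1 the core lay 7 to 4 bases before the start and in Itga8 244 to 241 bases before it. The core is short, and 54.8% of 32536 promoter windows of this length and 9 of 21 windows of the integrin and laminin genes held it on either strand. The windows of Itga2b and Lamb3 did not hold these letters. GC boxes (GGGCGG, either strand) were found at 2 places in Lamb1, and in 33.0% of all windows. None of the 4 windows held the GATA letters AGATAA or TGATAA (16.5% of all windows) or the AP-1 letters TGANTCA (6.73%).

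The remaining integrins of the matrix had an unadjusted p over 0.05 (edgeR). Itgb1 stood at 842, 563, 705 and 516 CPM in CTRL and at 568, 581, 572 and 593 CPM in Isl1_hypo. The controls were spread widely around the narrow range of the hypomorphic embryos, and the log2 fold change was −0.18 (SE 0.143, unadjusted p = 0.225, adjusted p = 0.636). Without CTRL replicate 1, the highest library, it was −0.05. Itga9 had a higher mean RPKM than Itga4, but lay under it in CTRL replicate 1 and Isl1_hypo replicates 1 and 2. Itga9 stood at 44.7, 43.1, 33.8 and 35.4 CPM in CTRL and at 31.4, 26.6, 34.4 and 35.9 CPM in Isl1_hypo, with a log2 fold change of −0.29 (SE 0.145, unadjusted p = 0.0703, adjusted p = 0.467). Its unadjusted p was 0.0440 with limma-voom, and it was under 0.05 with edgeR without CTRL replicate 3, 1 of the 8 fits without 1 library. Itga4, which binds fibronectin and VCAM1 and is needed in the epicardium, had one of −0.35 (SE 0.255), which was −0.01 without CTRL replicate 1. Of its exon bases 8.04% are shared with Cerkl on the other strand. Itgb5, Itgb8 and Itgb4 had log2 fold changes of −0.25, −0.13 and −0.38, and without Isl1_hypo replicate 3 of −0.33, 0.05 and −0.02. That of Itgb5 was −0.12 without CTRL replicate 1. The collagen-binding Itga11 stood at 2.53, 0.984, 1.99 and 2.24 CPM in CTRL and at 2.17, 2.59, 0.379 and 2.87 CPM in Isl1_hypo, a log2 fold change of 0.05 (SE 0.567), with Isl1_hypo replicate 3 far under all others. Itga10 had at most 34 counts in a library and a log2 fold change of −0.74. Itgb6 was outside the test, with 11, 3, 11 and 4 counts in CTRL and 29, 0, 0 and 19 counts in Isl1_hypo, most of them in the hypomorphic replicates 1 and 4.

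The leukocyte integrins were rare, and their log2 fold changes had both signs. Itgb2, the common beta subunit of leukocytes, stood at 1.38, 0.861, 0.397 and 0.748 CPM in CTRL and at 1.47, 1.42, 1.68 and 2.25 CPM in Isl1_hypo. Every hypomorphic embryo was above every control, but by less than 0.1 CPM at the nearest pair, and the log2 fold change was 1.01 (SE 0.499, unadjusted p = 0.0661, adjusted p = 0.459). The unadjusted p of Itgb2 was 0.0459 with DESeq2 (adjusted p = 0.363) and 0.0191 with limma-voom (adjusted p = 0.247). Itgam, the alpha subunit of the macrophage and granulocyte receptor Mac-1, had 7, 22, 44 and 23 counts in CTRL and 1, 0, 0 and 0 in Isl1_hypo. It was removed by the filter, and without a filter its unadjusted p was 0.00156 and its adjusted p 0.159 (edgeR, 17117 genes). Itgad had the highest mean RPKM of these genes over all libraries, but lay under Itgb2 per length in Isl1_hypo replicates 2 and 4. Itgad stood at 3.17, 2.29, 2.81 and 2.76 CPM in CTRL and at 2.44, 1.87, 3.64 and 2.01 CPM in Isl1_hypo (log2 fold change −0.14, or −0.39 without Isl1_hypo replicate 3), and shares 1.5% of its exon bases with Cox6a2. Itgal, Itgae, Itgb7 and Itgax had at most 121, 35, 54 and 12 counts in any library. The summed CPM of 8 macrophage markers was 11.1, 12.8, 22.2 and 28.2 in CTRL and 19.4, 5.73, 3.73 and 13.9 in Isl1_hypo, and all 7 that were tested had a lower mean in Isl1_hypo, with none at an unadjusted p under 0.05. Isl1_hypo replicate 1 held 19.4 CPM of these markers, within the control range, but 1 count of Itgam. The part of macrophages in the low Itgam counts was not tested.

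**Figure D5:**
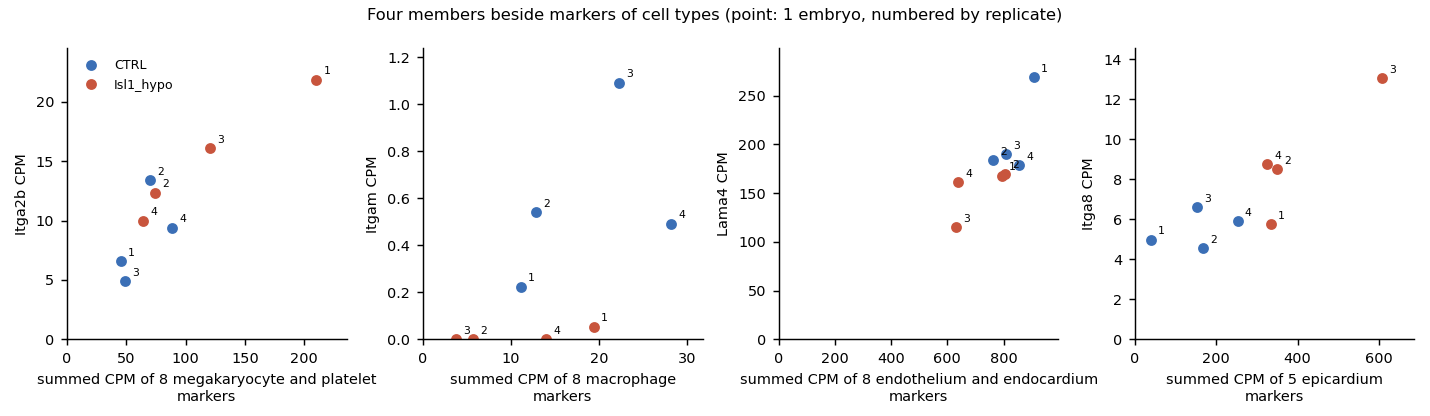
CPM of Itga2b, Itgam, Lama4 and Itga8 in each embryo (points numbered by replicate, CTRL in blue, Isl1_hypo in red) against the summed CPM of markers of megakaryocytes and platelets, macrophages, endothelium and endocardium, and epicardium. Isl1_hypo replicates 1 and 3 are highest on both axes for Itga2b, and Isl1_hypo replicate 3 for Itga8.

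Other genes of the same adhesion system were counted in 4 lists. Of 10 further basement membrane genes, all tested, 8 had a lower mean in Isl1_hypo, with a median log2 fold change of −0.43 and 3 lower and 1 higher at an unadjusted p under 0.05 (over all genes 6.17% lower and 5.69% higher). Without Isl1_hypo replicate 2 there were 6 lower, against 6.50% of all genes in that fit. The 1 higher gene was Smoc2, a matricellular protein gene, at 32.7 CPM in Isl1_hypo replicate 1 and 2.01 to 3.37 CPM in the other hypomorphic embryos. Its log2 fold change was 2.03, and 0.15 (unadjusted p = 0.754, edgeR) without that library, and no gene of the list was higher at this threshold without CTRL replicate 1 or 2 or Isl1_hypo replicate 1. Among the lower genes Col4a1, a chain of the collagen IV network, stood at 504, 325, 294 and 305 CPM in CTRL and 255, 246, 121 and 199 CPM in Isl1_hypo (log2 fold change −0.80, SE 0.234, unadjusted p = 0.00544, adjusted p = 0.222), and the groups did not overlap. Without Isl1_hypo replicate 3, the lowest library for Col4a1, its log2 fold change was −0.61 and the median of the list −0.20. Of 10 tested genes for other integrin ligands 9 had a lower mean, with a median of −0.63 and 7 lower and 0 higher at an unadjusted p under 0.05. Without CTRL replicate 1 there were 4 lower, against 5.12% of all genes in that fit. Fn1, the fibronectin gene, stood at 1339.9, 1289.9, 1165 and 1223 CPM in CTRL and 999, 1222, 789 and 1062 CPM in Isl1_hypo (log2 fold change −0.30, SE 0.129, unadjusted p = 0.0393, adjusted p = 0.391). The p of Fn1 was over 0.05 in 6 of the 8 fits without 1 library. Tnc, which encodes the matricellular protein tenascin C, stood at 364, 186, 284 and 233 CPM in CTRL and 141, 186, 107 and 147 CPM in Isl1_hypo (log2 fold change −0.88, SE 0.208, unadjusted p = 0.00136, adjusted p = 0.137).

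On the cell side the 21 adaptor and kinase genes of integrin adhesion had a median log2 fold change of −0.11 (−0.01 without Isl1_hypo replicate 3), with 15 lower, 4 lower at an unadjusted p under 0.05 (Tln1, Tln2, Vcl and Ptk2b) and 1 higher (Lims1), where over all genes 6.17% were lower and 5.69% higher at this threshold. When 1 library was left out the number lower ranged from 2 (without CTRL replicate 3) to 5 (without Isl1_hypo replicate 2), and the number higher from 0 (without CTRL replicate 3) to 3 (without Isl1_hypo replicate 4). Tln1 and Tln2 encode talins, which link integrin beta tails to actin, and had log2 fold changes of −0.37 (SE 0.137) and −0.39 (SE 0.101). The 11 laminin receptors other than integrins had a median of −0.09 with 8 lower, and of −0.04 with 6 lower without Isl1_hypo replicate 4. This list held the only gene of the 4 lists with an adjusted p under 0.05 in the fit of all 8 libraries. The next was Fbn1, a fibrillin gene among the other integrin ligands, with a log2 fold change of −0.65 and an adjusted p of 0.0577 (edgeR), which was 0.0483 without Isl1_hypo replicate 4. Sdc4, a heparan sulphate syndecan of focal adhesions, rose from 36.9, 43.2, 40.4 and 58.4 CPM in CTRL to 99.7, 103, 121 and 68.6 CPM in Isl1_hypo (log2 fold change 1.13, SE 0.187, unadjusted p = 7.01e-05, adjusted p = 0.0358, edgeR). Of the 8 fits without 1 library 3 kept this adjusted p under 0.05, and the log2 fold change ranged from 1.01 to 1.29.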

How the data were processed

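RNA of the OFT/RV of 4 CTRL and 4 Isl1_hypo single embryos was prepared as poly(A) libraries and sequenced on a BGISEQ-500. The authors aligned the reads to mm9 with STAR (introns of 20 to 500000 bases) and counted exon reads of RefSeq transcripts on both strands with HOMER. The deposited counts are raw, and because strand was not used, overlapping genes share reads. The deposited RPKM values (rpkm of edgeR) equal counts scaled to transcript length and to the total over all 31507 transcripts, without TMM scaling. The authors' DESeq2 comparison is also deposited, as a mean normalized signal, log2 fold change and its error, Wald score, p-value and adjusted p-value, and was not used.

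Of several transcripts of a symbol the one with the highest mean over the 8 libraries was kept. Genes were filtered with filterByExpr, scaled by TMM and compared with glmQLFit and glmQLFTest of edgeR 4.0.16 in R 4.3.3, with Benjamini-Hochberg adjustment over 13769 genes. All p-values in the text without another name are from this test. The standard error is the log2 fold change divided by the square root of F. Values of every embryo were given for genes with an unadjusted p under 0.05, for genes whose groups did not overlap in CPM and for the gene with the highest RPKM of each role. Lamb2, Itga3, Itga7, Itga10, Itgb6, Itgam and other low or context genes were named after their values were seen. A further gene that the rule matches is not reported here and is left out of every count of the group. The genes and lists were chosen with earlier results of these data known. Log2 CPM used a prior count of 2. Gene positions are from GENCODE (mm9), which matched all 34 genes, and promoter windows were found in the RefSeq table for 21 of them. Alternatives were DESeq2 1.42.0, limma-voom (limma 3.58.1) with sample weights, RLE and upper quartile scaling, other filters, the longest transcript, a loess length correction (span 0.5), the replicate block and leaving out each library.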

Additional observations from a re-analysis of the deposited data

Results flagged for a closer look

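Of 32 groups of 4 values examined (log2 CPM of 15 of the tested genes, those named by the rule, and of Isl1, in each group), 3 had a library far from the other 3 by the gap relative to the range, where chance gives about 1.6. Lama4 stood at 8.07 in CTRL replicate 1, against 7.48 to 7.57 in the other controls, and at 6.85 in Isl1_hypo replicate 3, against 7.33 to 7.41 in the other hypomorphic embryos. Both lie on the outer side of the difference between groups. Itga11 stood at −1.19 in Isl1_hypo replicate 3, against 1.16 to 1.55 in its group, and without this library its log2 fold change was 0.40.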

How the results depend on the processing

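The number of genes of the group with an adjusted p under 0.05 was 0 in all 17 alternatives. The number with an unadjusted p under 0.05 was 9, and 5 with the length trend removed. Over fits that left out 1 library it ranged from 4 (without CTRL replicate 1) to 11 (without CTRL replicate 4, with 29.0% lower and 6.45% higher, against 5.46% and 4.73% of all genes). The number without overlap was 4, with RLE size factors 3 (10%, against 8.53% of all genes) and with the length trend removed 2 (6.67%, against 8.82%). It ranged from 4 to 10 when 1 library was left out. The highest value was that without Isl1_hypo replicate 1, where the share of all genes without overlap was 14.2%, against 8.50% with all libraries. Over all genes the number with an adjusted p under 0.05 was 37, against 319 with DESeq2, 134 with limma-voom, 0 with the replicate block and 4 to 48 without 1 library. The block gave 8 genes of the group at an unadjusted p under 0.05 (20% lower and 6.67% higher, against 6.41% and 5.08% of all genes), and Isl1 a log2 fold change of −2.29 with an adjusted p of 0.0722. The labels give same-numbered embryos no link beyond the replicate number. Correlations of their deviations from the group means were 0.0189, −0.0209, 0.0130 and 0.0219. These values cannot tell whether such embryos shared a litter or a preparation. An unadjusted p under 0.05 was also reached without 1 library by Lamb2 (4 of 8 fits), Itga7 (2) and Itga3, Itga9 and Itgb2 (1 each). Of 255 values of the 15 genes 251 kept their direction. The 4 others were those of Itga11, at −0.13 with the replicate block, −0.17 without CTRL replicate 2, and −0.11 and −0.18 without Isl1_hypo replicates 2 and 4, and it reached 0.40 without Isl1_hypo replicate 3. The shares of the leading chains moved by less than the SD in the 9 alternatives run for them (longest transcript and each library left out), but the difference for Lama4 went from −0.99 to 0.74 percentage points without CTRL replicate 1. The cause of these shifts was not tested. At this depth the 4 integrins removed by the filter, with at most 54 counts in a library, allow no firm comparison.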
